A study of Mus musculus with 10 samples.

Results

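The genes described here encode acetyltransferases and deacetylases, many of which act on histones, and some of the proteins that read acetyl groups. Several of the enzymes act mainly on other targets, as named below. They were chosen by name and not by a threshold on a measured value, and number 32 of the 56748 genes in the count table. The set holds 12 acetyltransferases, 11 zinc-dependent deacetylases (HDACs), 7 sirtuins and 2 readers of the BET family. All 32 were in the table and all passed the filter on low counts, as did 14068 genes in total. RNA was measured by sequencing in mouse liver, in 5 libraries labelled ACSS2-flox (flox), which carry a floxed Acss2 gene, and 5 labelled ACSS2-HKO (HKO), in which the series describes Acss2 as deleted in liver cells. Both groups had been fed a high-fat, high-fructose diet for 4 months, so the diet is shared by the controls. For the promoter that drives the recombinase, the deleted exons, and the strain, sex and age of the mice, nothing is stated in the labels.

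Histone acetyltransferases take the acetyl group of acetyl-CoA and place it on lysines of histones, which loosens chromatin and offers a docking site to bromodomain proteins. HDACs remove it by hydrolysis with a zinc ion, and sirtuins remove it at the expense of NAD. ACSS2 makes acetyl-CoA from acetate in the cytosol and nucleus and is therefore a supplier of the acetyltransferases, which is the link between the deleted gene and the set. In liver these proteins are known for their part in the control of gluconeogenesis, lipid synthesis and fasting metabolism.

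Library totals ran from 15413648 to 19275358 counts, and 3 counts were worth 0.156 to 0.195 CPM (counts scaled to a fixed library size). The targeted gene was still read in every HKO library, since Acss2 lay between 56.5 and 129 CPM in flox and between 40.2 and 59.0 CPM in HKO, with overlapping groups (log2 fold change -0.71 ± 0.21, SE; edgeR adjusted p = 0.0858; DESeq2 adjusted p = 0.0416). These counts cover the whole gene, so they do not check the deletion itself, and Gss, which shares 22544 bases with Acss2 on the opposite strand, had 92.4% of its number of counts. The 8 hepatocyte markers were all detected, and summed to between 83690 and 138100 CPM in each library, so the tissue label held. Flox 1 and HKO 4 stood apart in base composition. Across 13858 tested genes, which are not independent replicates, a library's deviation from its group mean went with the GC content of the gene's longest transcript with a Pearson r of -0.50 in flox 1 and -0.31 in HKO 4, against 0.02 to 0.20 in the 8 other libraries. The labels do not say that each library is a separate animal, so p-values measure the spread between libraries.

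Hdac9, a class IIa deacetylase, was the 1 gene called among the 32. Of the 32 genes, 1 fell in HKO, 0 rose and 31 did not pass the edgeR test at an adjusted p of 0.05. That share of 3.12% lay near the 3.99% of all tested genes that were called, of which 3.07% fell and 0.917% rose. DESeq2 also called Hdac9 and none of the other 31, with 6.14% of its tested genes called. At an unadjusted p under 0.05 the genes were Hdac9 and Sirt1, which is 2 of 32, against 16.9% of all tested genes; 1 of the 32, Sirt1, was higher, against 6.07%. Levels did not overlap between the groups for 1 of the 32 genes, again Hdac9, against 5.37% of all tested genes (3.46% lower and 1.91% higher in HKO). The other 31 log2 fold changes ran from -0.44 for Hat1 to 0.41 for Sirt1. Over all 32, 16 lay above 0 and 16 below, with a median of -0.0005 beside 0.0083 over all tested genes.

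For most of the genes the size of a change in RNA was bounded closely. The 95% confidence interval of the fold change lay inside a 2-fold change in either direction for 31 of the 32 genes, which was so for 72% of all tested genes. It lay inside a 1.5-fold change for 22 of the 32, against 38.1% of all tested genes. Intervals in this range leave room for small differences, and they concern RNA, not enzyme activity or histone acetylation, which were not measured.

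**Figure D1:**
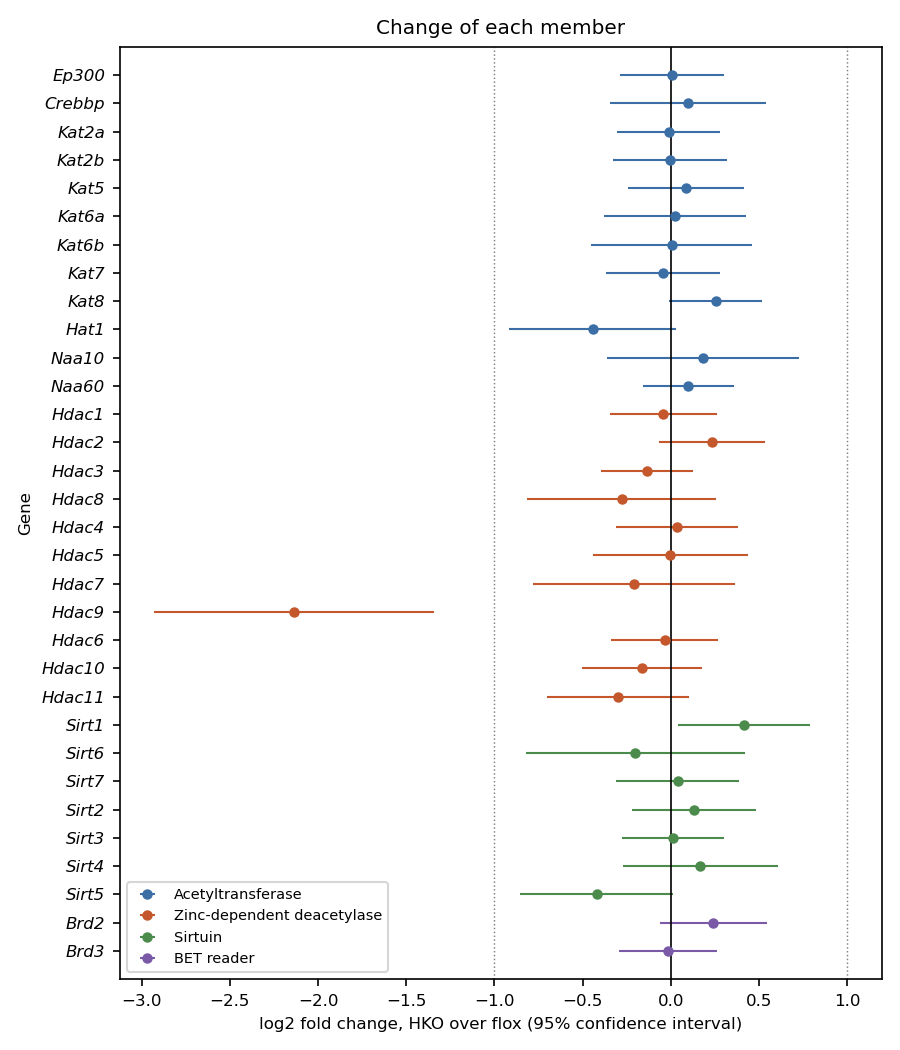
Log2 fold change of each of the 32 genes, HKO over flox (points), with its 95% confidence interval (bars); colours give the 4 families, the solid line marks no change and the dotted lines a 2-fold change. Hdac9, at -2.13, is the only gene whose interval lies outside the dotted lines, and the other 31 intervals lie between them.

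Hdac9 (ENSMUSG00000004698) encodes a class IIa deacetylase, a signal-responsive repressor that shuttles between nucleus and cytosol and binds MEF2 transcription factors. Flox libraries 1 to 5 held 29, 24, 53, 37 and 52 counts of it, or 1.77, 1.46, 2.89, 2.12 and 2.62 CPM. HKO libraries 1 to 5 held 4, 13, 10, 7 and 5 counts, or 0.259, 0.819, 0.661, 0.450 and 0.276 CPM. Every HKO library lay below every flox library. The mean fell from 2.17 ± 0.589 to 0.493 ± 0.244 CPM (SD, n = 5 each), a log2 fold change of -2.13 ± 0.37 (SE), and the edgeR adjusted p was 0.00978. HKO thus stood at 22.8% of flox, with a 95% confidence interval of 13.1 to 39.5%. An exact two-sided permutation test gave p = 0.00794, the smallest that 5 against 5 libraries allow. The call held in each of the 19 alternative fits, with an adjusted p of 1.20e-05 to 0.0411 and a log2 fold change of -2.39 to -1.98. The highest of these p-values came with flox 1 and HKO 4 left out together, where the log2 fold change was -2.17.

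Per kilobase, Hdac9 was the least abundant of the 32 genes in flox, at 0.147 ± 0.0397 RPKM (CPM per kilobase of the deposited gene length). The next gene, Hdac4, was at 0.631 ± 0.0769 RPKM, with no overlap between its flox libraries and those of Hdac9. Hdac9 lies on the minus strand of chromosome 12 from 34097579 to 34967094, in the coordinates of the deposited table, whose build is uncertain.

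Macrophage transcripts moved the same way. All 13 macrophage and Kupffer cell markers fell in HKO, against 3.07% of all tested genes. Their log2 fold changes had a median of -1.71, and 0 of them were at 0 counts. Flox libraries 1 to 5 summed to 456, 517, 336, 776 and 829 CPM over these markers, and HKO libraries 1 to 5 to 150, 195, 261, 185 and 125 CPM. The groups did not overlap in this sum or in Hdac9. Within HKO the 2 libraries with the highest Hdac9, replicates 2 and 3, also had the 2 highest marker sums, while within flox the highest Hdac9 stood in replicate 3, which had the lowest marker sum. The 10 markers of T, NK and B cells were all detected. They summed to 30.1 to 142 CPM in flox and 23.6 to 40.1 CPM in HKO. Most of each sum was Igkc alone, at 25.9 to 135.5 CPM in flox and 18.2 to 34.4 CPM in HKO. Of 6 tested markers 1 fell (Igkc), and 2 had log2 fold changes above 0. The 5 neutrophil markers summed to 5.36 to 18.5 CPM in flox and 3.09 to 11.6 CPM in HKO. Of 3 tested neutrophil markers 0 passed, and all 3 log2 fold changes lay below 0, with a median of -1.175. At an unadjusted edgeR p under 0.05, 2 of these 3 were lower, against 10.8% of all tested genes. Among markers of sinusoidal endothelial cells 1 of 7 fell (Cdh5), and all 7 log2 fold changes lay below 0. Of the 8 markers of stellate cells and fibroblasts 0 passed, with 6 log2 fold changes below 0 and 2 above. At an unadjusted edgeR p under 0.05, 4 of these 8 were lower, against 10.8% of all tested genes, and 0 higher. All 4 were highest in flox 5. The lowest log2 fold change of the 8 was -2.20, for Col1a1. It stood at 35.9 CPM in flox 5 and at 1.38 to 5.97 CPM in the other flox libraries. Of 5 cholangiocyte markers 0 passed. For each of these cell types the sums overlapped between the groups. The part of these cells in the fall of Hdac9 was not tested. In whole tissue, fewer cells of a type and less RNA per cell cannot be told apart.

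**Figure D2:**
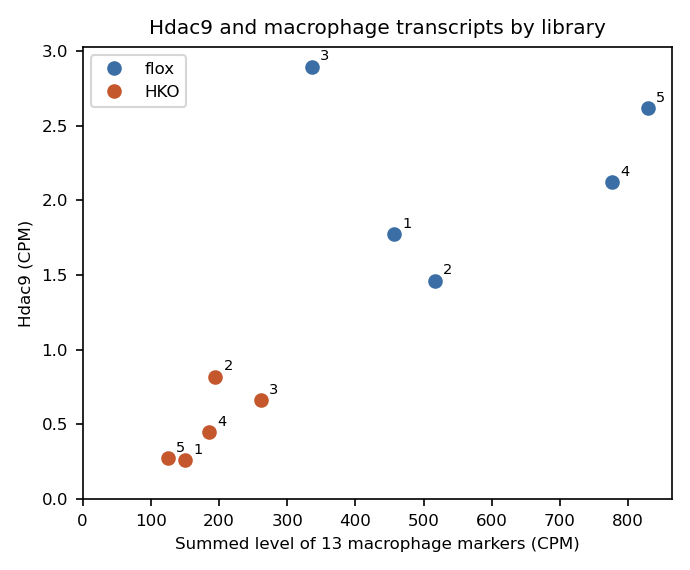
Hdac9 (CPM, vertical axis) against the summed level of 13 macrophage and Kupffer cell markers (CPM, horizontal axis) in each of the 10 libraries, numbered by replicate. The 5 HKO libraries lie at 0.259 to 0.819 CPM of Hdac9 and at most 261 CPM of markers; flox replicate 3 has the highest Hdac9, 2.89 CPM, with 336 CPM of markers.

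The promoters of the set differ in a feature that can be read from the sequence, the number of CG dinucleotides, which are dense at the starts of most widely expressed genes. RefSeq promoters (build GRCm38.p6, windows of 300 bases with 250 before and 50 after the start) were found for 28 of the 32 genes. Counting the window with the most CG for each gene, the median was 21.5 CG per gene, beside 21 over the 10222 tested genes with a window. Hdac9 had the fewest of the set, 3, and 6.49% of those tested genes had 3 or fewer. Next was Hdac8 with 6, and the most were in Crebbp, with 49. The motif CG is its own reverse complement, so both strands give the same count, and 94.6% of all 32851 windows hold at least 1. The 2 Hdac9 windows are printed because Hdac9 is the gene that fell, and the Sirt1 window because Sirt1 had the highest log2 fold change of the set, which did not pass, and a dense window. Each is written 5′ to 3′ on the gene's strand, with CG in capitals. The Hdac9 windows lie at chr12:34528840-34529139 and chr12:34917046-34917345 and the Sirt1 window at chr10:63338986-63339285, all on the minus strand. They hold 3, 0 and 47 CG in that order.
Hdac9, inner start: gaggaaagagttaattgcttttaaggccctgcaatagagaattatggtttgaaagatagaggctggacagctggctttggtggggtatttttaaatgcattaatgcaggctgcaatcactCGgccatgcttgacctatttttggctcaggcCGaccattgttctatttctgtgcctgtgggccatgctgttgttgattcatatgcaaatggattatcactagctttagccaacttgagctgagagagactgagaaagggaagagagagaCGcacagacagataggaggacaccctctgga
Hdac9, outer start: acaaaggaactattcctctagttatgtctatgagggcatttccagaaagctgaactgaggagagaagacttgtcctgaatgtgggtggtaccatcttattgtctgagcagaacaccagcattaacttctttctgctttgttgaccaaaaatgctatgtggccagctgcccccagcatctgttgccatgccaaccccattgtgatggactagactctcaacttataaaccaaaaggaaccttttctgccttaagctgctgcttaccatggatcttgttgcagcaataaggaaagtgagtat
Sirt1: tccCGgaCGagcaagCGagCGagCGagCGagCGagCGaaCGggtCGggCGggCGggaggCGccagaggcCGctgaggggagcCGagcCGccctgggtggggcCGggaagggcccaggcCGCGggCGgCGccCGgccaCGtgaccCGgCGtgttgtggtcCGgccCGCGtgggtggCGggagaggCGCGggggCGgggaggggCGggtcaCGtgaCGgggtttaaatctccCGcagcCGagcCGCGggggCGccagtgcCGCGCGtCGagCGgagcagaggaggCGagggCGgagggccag
The counts cover the whole gene and do not tell which Hdac9 start was used in these livers.

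None of the 12 acetyltransferase genes passed. The paralogues Ep300 and Crebbp, large coactivators that acetylate histone H3 at enhancers, were close to level. Ep300 was at 40.3 ± 6.05 CPM in flox and 40.4 ± 4.56 CPM in HKO, with a log2 fold change of 0.01 ± 0.14 and a 95% confidence interval of -0.29 to 0.30. Crebbp was at 32.3 ± 8.28 and 34.6 ± 9.24 CPM, with an interval of -0.35 to 0.54. Both were lowest in flox 2 and highest in HKO 3. Kat2a and Kat2b, the catalytic subunits of the SAGA and ATAC coactivator complexes (GCN5 and PCAF), had log2 fold changes of -0.01 ± 0.14 and -0.01 ± 0.15. By the deposited gene lengths, Kat2b had the highest level per length of the whole set. It stood at 19.9 ± 3.70 RPKM in flox and 19.8 ± 2.59 RPKM in HKO, against 5.91 ± 0.841 and 5.86 ± 0.668 RPKM for Kat2a.

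The 5 MYST acetyltransferases had log2 fold changes of -0.04 to 0.25. Kat5, the catalytic subunit of the NuA4 complex (TIP60), was read at 10.5 ± 0.419 CPM in flox and 11.2 ± 1.97 CPM in HKO, and shares 4006 bases with Rnaseh2c, whose counts on the opposite strand came to 226% of its own. Kat6a and Kat6b, which acetylate histone H3, had log2 fold changes of 0.02 ± 0.19 and 0.004 ± 0.21. Kat7, the subunit HBO1 that acetylates histones at replication origins and gene bodies, was at -0.04 ± 0.15. Kat8 (MOF), which acetylates lysine 16 of histone H4, was the MYST gene with the smallest p. The flox libraries, 1 to 5, were at 20.01, 18.0, 19.7, 15.4 and 16.9 CPM, and the HKO libraries at 21.8, 19.3, 23.7, 20.8 and 21.7 CPM. The groups overlapped through 1 HKO library, replicate 2, and the difference did not pass (log2 fold change 0.25 ± 0.12, unadjusted p = 0.0574, edgeR adjusted p = 0.318; exact permutation p = 0.0238, not adjusted). Kat8 shares 122 bases with Prss8 of the opposite strand, whose counts were 14.7% of its own.

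Hat1, the cytosolic enzyme that acetylates newly made histone H4 before it is placed on DNA, had the lowest log2 fold change of the acetyltransferases, -0.44 ± 0.22. Hat1 stood at 11.01, 8.16, 6.88, 9.86 and 11.1 CPM in the flox libraries, in replicate order, and at 9.27, 6.87, 4.30, 7.97 and 6.17 CPM in the HKO libraries. The groups overlapped, and the difference did not pass (edgeR adjusted p = 0.331, with an interval of -0.92 to 0.03). Naa10 and Naa60 acetylate mainly the N-termini of proteins. Naa60 was at 62.7 ± 4.99 and 67.1 ± 6.94 CPM, and Naa10 at 12.02 ± 4.48 and 13.6 ± 3.15 CPM, with the largest relative spread of the set in flox (a coefficient of variation of 37.3%). Naa10 shares 4998 bases with Arhgap4 on its own strand, with 47.1% of its number of counts, and Naa60 overlaps Zfp597 of the opposite strand (16.9%).

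Of the 11 zinc-dependent deacetylases, Hdac9 was the 1 that passed, and 9 of the 11 had a log2 fold change below 0, as had 49% of all tested genes. Their median was -0.14. The class I enzymes Hdac1, Hdac2 and Hdac3 are the catalytic cores of the Sin3, NuRD, CoREST and NCoR complexes, and none of them passed. Hdac1 was at 20.2 ± 1.72 CPM in flox and 19.6 ± 3.31 CPM in HKO, and a near-identical copy, Gm10093, held 5.94% as many counts. Hdac2 was at 20.9 ± 2.80 and 24.5 ± 3.67 CPM (log2 fold change 0.23 ± 0.14, edgeR adjusted p = 0.446). Hdac3, the NCoR enzyme whose loss in liver is known to cause steatosis, was at 39.0 ± 3.48 and 35.5 ± 3.48 CPM, with an interval of -0.40 to 0.12. Hdac8, which deacetylates the cohesin subunit SMC3, was at 3.28 ± 0.986 and 2.70 ± 0.413 CPM.

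The other 3 class IIa genes did not pass. Hdac4 and Hdac5, which in fasted liver are known to act on FOXO factors of gluconeogenesis, had log2 fold changes of 0.04 ± 0.16 and -0.005 ± 0.20, with intervals of -0.31 to 0.38 and -0.44 to 0.43. Hdac7 was at -0.21 ± 0.27, with flox libraries between 5.90 and 10.1 CPM and HKO libraries between 3.89 and 10.97 CPM, and shares 29 bases with Slc48a1 of the opposite strand, whose counts were 507% of its own. These 3 intervals do not reach that of Hdac9, which ended at -1.34, although the difference between the genes was not itself tested. The class IIb genes Hdac6, a tubulin deacetylase of the cytosol, and Hdac10, a polyamine deacetylase, were at -0.04 ± 0.14 and -0.16 ± 0.16. Hdac11, the single class IV enzyme, which removes long fatty acyl groups, was at 40.1 ± 9.43 and 32.6 ± 6.52 CPM (log2 fold change -0.30 ± 0.19, edgeR adjusted p = 0.466). Its lowest levels in each group were in the libraries that stood apart in base composition, 27.8 CPM in flox 1 and 22.5 CPM in HKO 4.

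Among the 7 sirtuins 0 passed in edgeR or DESeq2. An unadjusted edgeR p under 0.05 was seen for 1 (Sirt1), against 16.9% of all tested genes. Sirt1 and Sirt5 had the smallest p-values of the family, in opposite directions. Sirt1, the nuclear enzyme that deacetylates histones and regulators such as PGC-1α and SREBP in fasted liver, stood at 22.7, 15.3, 12.8, 14.8 and 13.5 CPM in the flox libraries, in replicate order, and at 16.1, 19.9, 23.1, 24.0 and 22.2 CPM in the HKO libraries. All 5 HKO libraries lay above 4 of the 5 flox libraries, and flox 1 lay among the HKO libraries. The log2 fold change was 0.41 ± 0.17, with an unadjusted p of 0.0326 and an edgeR adjusted p of 0.238. Without flox replicate 1 it was 0.58 and passed (edgeR adjusted p = 0.0480). The longest Sirt1 transcript has a GC content of 44.0%, and flox 1 is the library with the most negative relation to GC content. HKO 4, the other library that stood apart in base composition, had the highest Sirt1 level of all libraries, 24.0 CPM. With GC content as an offset in the model the log2 fold change was 0.41 (edgeR adjusted p = 0.138), and with flox 1 and HKO 4 left out together it was 0.53 (edgeR adjusted p = 0.105). The part of base composition in the high levels of Sirt1 in flox 1 and HKO 4 was not tested.

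Sirt5, the mitochondrial enzyme that removes succinyl, malonyl and glutaryl groups, stood at 10.95, 16.6, 10.6, 12.3 and 12.04 CPM in the flox libraries and at 12.6, 9.27, 8.79, 5.91 and 10.1 CPM in the HKO libraries. Of the HKO libraries, 4 lay below all flox libraries and replicate 1 lay within them. The log2 fold change was -0.42 ± 0.20 (edgeR adjusted p = 0.316, interval -0.85 to 0.01). Neither of the other mitochondrial sirtuins passed. Sirt3, the main mitochondrial deacetylase, was at 65.9 ± 10.1 and 66.6 ± 6.64 CPM, with an interval of -0.27 to 0.30. Sirt4, an inhibitor of glutamate dehydrogenase, was at 12.2 ± 3.73 and 13.7 ± 2.53 CPM. Per length, the ratio of Sirt3 to Sirt5 lay between 4.96 and 5.92 in flox libraries and between 5.52 and 10.2 in HKO libraries, which overlap. Sirt3 overlaps Psmd13 and Ric8a of the opposite strand, whose counts were 88.7% and 33.8% of its own.

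The remaining sirtuins did not pass. Sirt2, which deacetylates tubulin in the cytosol, was at 52.7 ± 7.98 and 57.7 ± 11.7 CPM and overlaps Nfkbib of the opposite strand (34.3%). Sirt6, a nuclear enzyme known to repress glycolytic genes, was at 3.62 ± 1.02 and 3.15 ± 1.07 CPM, and Sirt7, an enzyme of the nucleolus, at 50.3 ± 9.06 and 51.6 ± 9.23 CPM. Sirt7 shares 124 bases with Mafg of its own strand, whose counts were 220% of its own. Their log2 fold changes were 0.13 ± 0.16 for Sirt2, -0.20 ± 0.29 for Sirt6 and 0.04 ± 0.16 for Sirt7. Sirt6 was at 2.02 CPM in flox 1 and 2.06 CPM in HKO 4, the lowest library of each group.

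**Figure D3:**
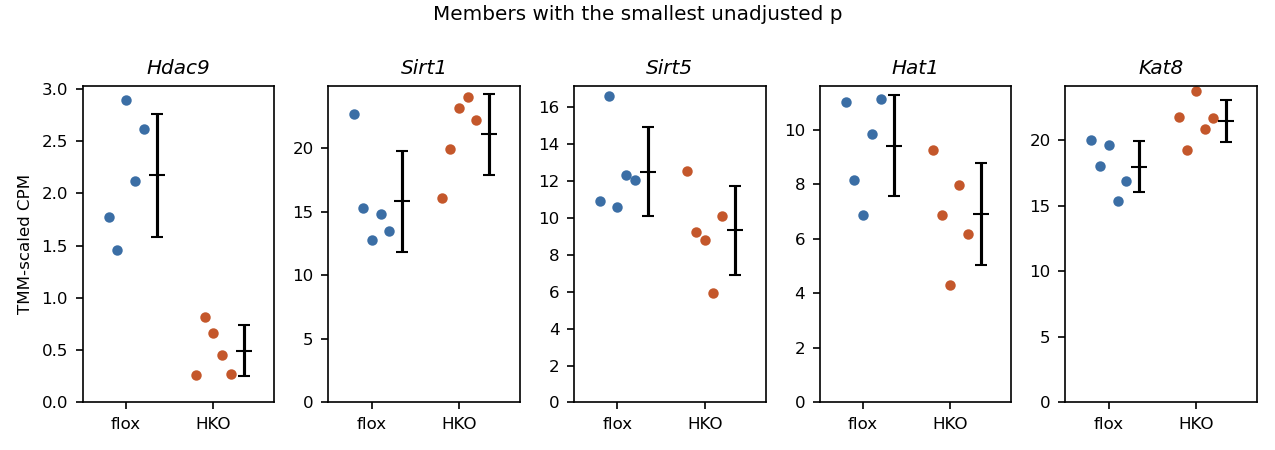
TMM-scaled CPM of Hdac9, Sirt1, Sirt5, Hat1 and Kat8, the 5 genes of the set with the smallest unadjusted p, in each flox and HKO library (points, spread sideways in replicate order), with the mean and SD of each group (dash and bar, n = 5). The groups are apart for Hdac9 and overlap for the other 4, and 1 flox library, at 22.7 CPM, sits among the HKO libraries for Sirt1.

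The BET proteins read acetylated histone tails through a pair of bromodomains and recruit the transcription machinery. Brd2 stood at 93.6, 93.1, 106, 79.0 and 86.4 CPM in the flox libraries and at 90.2, 91.3, 133, 116 and 110.2 CPM in the HKO libraries, in replicate order. HKO replicates 3, 4 and 5 lay above all flox libraries and the other two lay within them, and the difference did not pass (log2 fold change 0.24 ± 0.14, edgeR adjusted p = 0.433). Brd3 was at 49.0 ± 6.30 and 48.4 ± 4.84 CPM, with an interval of -0.30 to 0.26. Per length, the ratio of Brd3 to Brd2 lay between 0.474 and 0.627 in flox libraries and between 0.369 and 0.611 in HKO libraries.

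Levels per length spread over a wide range within the set, and their order rests on the deposited gene lengths. For Naa60 that length was 3765 bases, against 2424 in its longest transcript. It was 5035 against 2117 for Sirt2 and 4867 against 4653 for Kat2b. An order by transcript length was not tried and could differ. In flox, Kat2b (19.9 RPKM) and Naa60 (16.7 ± 1.33) stood above all others. Brd2, at 11.7 ± 1.25 RPKM, came next, and its flox libraries did not overlap those of Naa60. Brd2, Sirt3, Sirt2, Hdac11, Sirt7 and Hdac3 followed each other from 11.7 to 9.62 RPKM with each overlapping its neighbour. Brd3 (6.68 ± 0.859) did not overlap Hdac3, the gene just above it. From Brd3 down to Sirt5 (2.05 ± 0.396), 18 genes formed a run in which each after Brd3 overlapped the gene above it. Only neighbours in the order were compared, so such a break does not set apart whole steps. Brd3 reached 8.015 RPKM in flox, above the lowest flox library of Hdac11 (7.233 RPKM). Sirt6, Hdac7, Kat6b, Hdac8 and Hdac4 lay between 1.30 and 0.631 RPKM, above Hdac9.

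**Figure D4:**
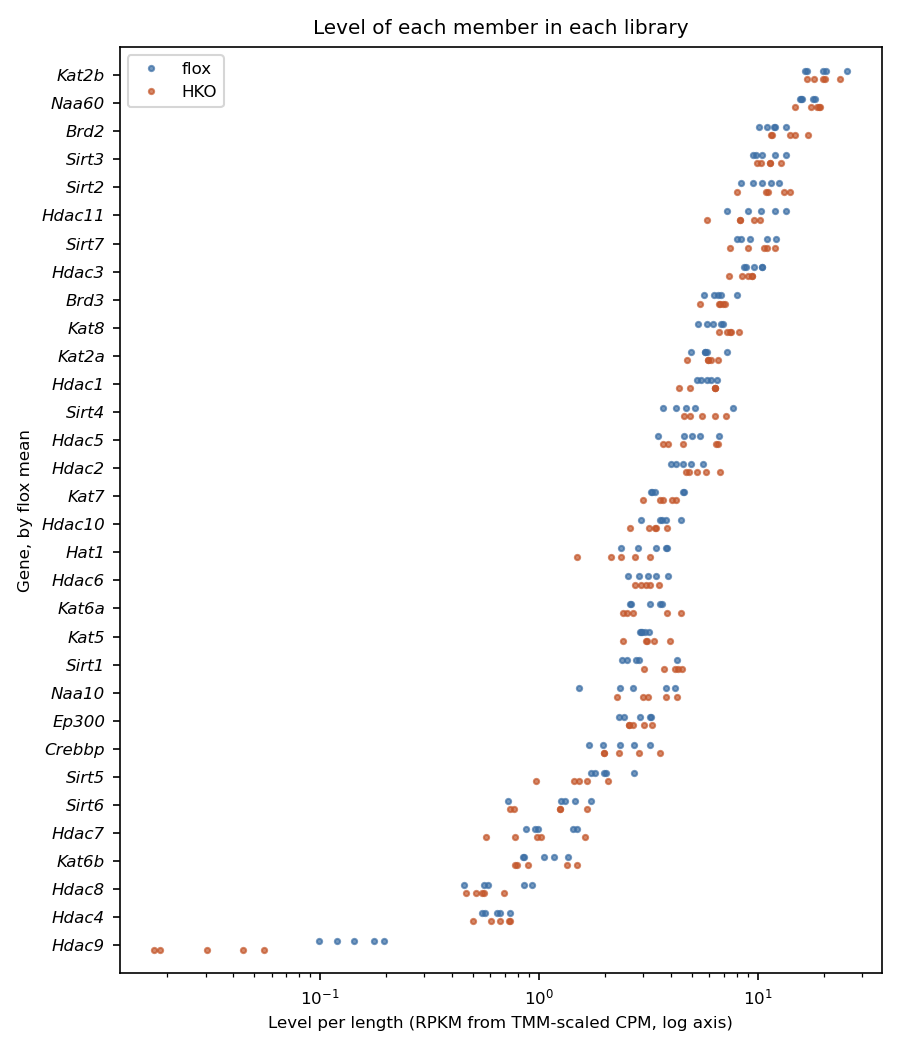
Level per length (RPKM from TMM-scaled CPM, log axis) of the 32 genes in each flox and HKO library, ordered by the flox mean. Hdac9, at the bottom, is the gene with the lowest level and the only one whose flox and HKO points do not overlap.

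Near relatives were also set against each other. In all 7 pairs compared by level per length, the ratios of the flox and HKO libraries overlapped. The ratio of Crebbp to Ep300 lay between 0.732 and 0.999 in flox libraries and between 0.738 and 1.09 in HKO libraries. Kat2b to Kat2a ran from 2.28 to 5.20 and from 2.76 to 4.97, and was highest in flox 1 and HKO 4. Hdac2 to Hdac1 ran from 0.615 to 0.955 and from 0.834 to 1.11. Sirt2 to Sirt1 ran from 1.98 to 5.21 and from 1.79 to 3.70, with its lowest values in flox 1 and HKO 4. The pair Hdac7 and Hdac5 gave 0.149 to 0.299 and 0.148 to 0.253.

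Within groups, the GC-richer genes of the set were mostly low in flox 1 and HKO 4, the libraries that stood apart in base composition. Of the 20 genes whose longest transcript has a GC content of 50% or more, 6 were above the mean of the other flox libraries in flox 1, and 4 above the mean of the other HKO libraries in HKO 4. Flox 4 had a count close to that of flox 1, 7 of 20, with a median log2 deviation of -0.06 and a Pearson r of 0.02. The same count was 18 of 20 in flox 3 and 16 of 20 in HKO 5. Over all tested genes with a GC content, those 2 libraries had a Pearson r of only 0.17 and 0.02. The median deviation of those 20 genes was -0.28 in flox 1, -0.33 in HKO 4 and 0.34 in flox 3 on the log2 scale. Of the 12 GC-poorer genes, 7 and 6 were above the rest of the group in flox 1 and HKO 4, with median deviations of 0.04 and -0.05. With GC content as an offset, 1 of the 32 genes fell and 0 rose, as without it, and that gene was Hdac9 again (log2 fold change -2.15, edgeR adjusted p = 0.0108).

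**Figure D5:**
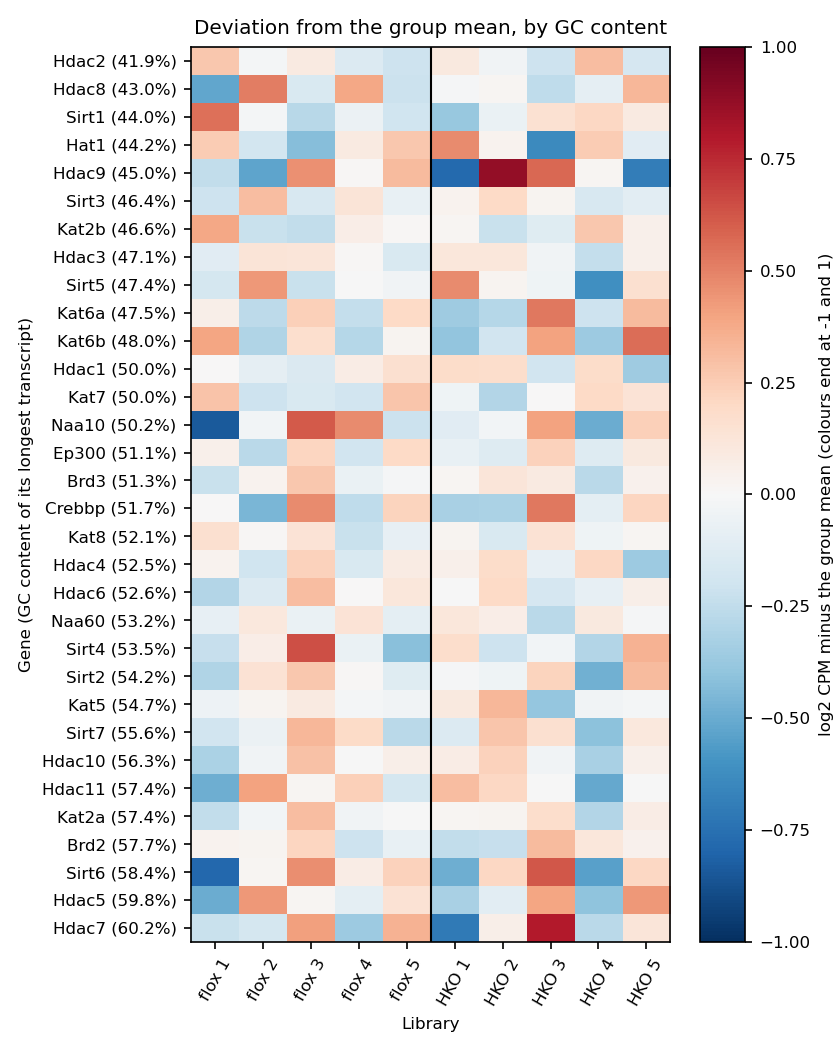
Deviation of each gene's log2 CPM from its group mean (colour) in each of the 10 libraries (columns), with the 32 genes in rows from the lowest to the highest GC content of their longest transcript. Among the GC-rich genes in the lower rows, flox 1 and HKO 4 are mostly below their group mean and flox 3 mostly above it.

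Other genes of the pathway were described by 4 lists. Of 46 further acetyltransferases and subunits of their complexes, all tested, 1 fell and 0 rose, with a median log2 fold change of 0.04. At an unadjusted p under 0.05, 1 was lower (Jade2) and 2 were higher (Brpf3 and Sgf29), against 10.8% and 6.07% of all tested genes. The gene that fell was Jade2, a scaffold subunit of the HBO1 acetyltransferase complex. Jade2 stood at 15.9, 13.6, 11.7, 14.1 and 15.7 CPM in the flox libraries and at 7.52, 10.1, 7.07, 8.23 and 10.7 CPM in the HKO libraries. The groups did not overlap, which was so for 5.37% of all tested genes (log2 fold change -0.70 ± 0.16, edgeR adjusted p = 0.0285). It no longer passed when flox 1, 2, 4 or 5 was left out, or HKO 1, 3 or 4 (edgeR adjusted p of 0.0526 to 0.0780), nor with GC content as an offset (0.0512) or with flox 1 and HKO 4 left out together (0.118). DESeq2 in addition called Sgf29, a SAGA subunit, higher (edgeR adjusted p = 0.0685), and Sgf29 shares 61 bases with Sult1a1 of the opposite strand, whose counts were 3130% of its own. Kat7, the catalytic partner of Jade2, was at -0.04. Kat14, an acetyltransferase of the ATAC complex, was at 17.4 ± 1.47 and 17.4 ± 2.97 CPM.

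Of 33 subunits of deacetylase complexes, 31 were tested and 0 passed in edgeR or DESeq2, with a median of 0.07. An unadjusted edgeR p under 0.05 was seen for 2 (Suds3 and Tbl1x), against 16.9% of all tested genes. Sin3a, the scaffold of the Sin3 complex, was at 27.4 ± 4.55 and 27.9 ± 1.44 CPM. Of 32 further acetyl-lysine readers in the table, 31 were tested and 0 passed in edgeR, with a median of 0.04. Of these 31, 3 had an unadjusted edgeR p under 0.05 (Cecr2, Trim24 and Smarca4), against 16.9% of all tested genes. DESeq2 called 1 of the readers, Cecr2, higher.

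Of 20 genes of the supply and use of acetyl-CoA and NAD, Acss2 included, 18 were tested, 1 fell and 0 rose. At an unadjusted p under 0.05, 5 of the 18 were lower (Acss2, Acly, Dlat, Parp1 and Cd38) and 0 higher, against 10.8% and 6.07% of all tested genes. Their log2 fold changes had a median of -0.22 and lay below 0 for 12 of the 18. Acss2, the targeted gene, counts among the 5 and the 12, so its direction was fixed in advance by the design. Acly, the ATP-citrate lyase that makes acetyl-CoA from citrate in the same compartments as ACSS2, stood at 88.6, 86.5, 53.2, 113 and 122 CPM in the flox libraries and at 70.5, 47.1, 41.0, 45.0 and 53.7 CPM in the HKO libraries. The groups overlapped because flox 3 lay below HKO 1 and HKO 5. The log2 fold change was -0.85 ± 0.21 (edgeR adjusted p = 0.0405), and it no longer passed when any 1 library other than flox 3 or HKO 1 was left out (edgeR adjusted p of 0.0607 to 0.108), nor with GC content as an offset (0.0505) or with flox 1 and HKO 4 left out together (0.144). Parp1, which consumes NAD, was at 28.5 ± 3.20 and 20.9 ± 2.67 CPM (edgeR adjusted p = 0.0780), and Nampt, the rate-limiting enzyme of NAD salvage, at 75.8 ± 12.8 and 70.7 ± 15.6 CPM. Over these 4 lists together, 2 of 126 tested genes fell (1.59%), beside the 3.99% called among all tested genes. Levels did not overlap between the groups for 1 gene that was lower in HKO (Jade2) and 2 that were higher (Sgf29 and Suds3). The shares of all tested genes were 3.46% and 1.91%.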

How the data were processed

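The authors deposited a table of unscaled read counts per gene for 10 liver libraries, made with a VAHTS kit per the labels' protocols. The submitters' processing notes name mm10 and DESeq2. Aligner, counter, annotation and strand setting: not given in the sources used here. Gene lengths were deposited by the authors with the counts. The start and end of 0 of the 32 genes were the same in GENCODE M21 (GRCm38), so the table's coordinates have an uncertain build. The test of HKO against flox was edgeR's quasi-likelihood test (two-sided, edgeR 4.0.16 in R 4.3.3) with TMM scaling and filterByExpr, fitted on the whole table, and Benjamini-Hochberg adjusted over the 14068 tested genes. Levels are TMM-scaled CPM. Standard errors were calculated back from F, and intervals use them with the test's total degrees of freedom, prior and residual together. Permutation tests of log2 CPM (prior count 2) ran over all 252 assignments. Replicates were not repeat deposits of 1 library (chi-square per degree of freedom of at least 24.6). The test was checked on simulated counts. Copies were found with BLAST (95% identity over 50% of the transcript), and overlapping genes are given where they had at least 10% as many counts. The members and lists were chosen with earlier results of these data known. Named genes were the 32 members, Acss2, Acly, the first gene of each related list and every related gene with an adjusted p under 0.05; a gene that the rule names is not reported here. Suds3, Tbl1x, Cecr2, Trim24, Smarca4, Dlat, Cd38, Brpf3, Parp1, Nampt, Sgf29, Igkc, Cdh5 and Col1a1 were named after their values were seen. The alternatives were DESeq2 1.42.0, other scalings, filters and dispersions, a replicate block, 1 library left out, and 2 chosen after seeing the data.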

Additional observations from a re-analysis of the deposited data

Results flagged for a closer look

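Of 76 groups of 5 libraries tested over 38 named genes, 3 held a library far from the others, and chance flags about 1 in 20 groups. Sirt1 in flox 1 stood at 22.7 CPM, above the other flox libraries. Sirt5 in flox 2 stood at 16.6 CPM, above the other flox libraries. Brd3 in HKO 4 stood at 40.0 CPM, below the other HKO libraries.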

How the results depend on the processing

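Hdac9 was called lower in all 19 alternatives, and no other of the 32 genes was called lower in any; the count called higher was 0 in all but 1, with leave-one-out values of 0 to 1 (Sirt1 without flox 1). No gene that passed in any fit passed in the opposite direction in another. The depth limits Hdac9 most, with at most 13 counts in an HKO library. The count of all genes called was 561, and 1112 with DESeq2, 289 without HKO 4, 335 without HKO 1, 361 without flox 5, 354 without HKO 5 and 221 with flox 1 and HKO 4 left out together.

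Library totals alone in place of TMM moved the median of all tested genes by -0.11, to -0.0994, and that of the 32 genes to -0.1141. Under that setting the log2 fold changes that turned sign were Ep300 -0.1134, Crebbp -0.0315, Kat5 -0.0199, Kat6a -0.0975, Kat6b -0.106, Naa60 -0.0075, Hdac4 -0.0773, Sirt7 -0.0631, Sirt3 -0.0846 and Sin3a -0.0869. Other sign changes were of values near 0 that passed in no fit. With DESeq2 they were Kat2a 7e-04, Kat2b 0.0073, Hdac5 0.0043 and Kat14 0.0103, and with no filter on low counts Kat2a 1e-04, Kat2b 0.0064, Hdac5 0.0047 and Kat14 0.0101. With median-ratio size factors they were Kat2b 0.0033, Hdac5 0.0028 and Kat14 0.0066. With flox 1 and HKO 4 left out together they were Kat2b 0.0306 and Hdac4 -0.009, and with GC content as an offset Kat2a 0.0607, Hdac5 0.0608, Hdac6 0.0184, Brd3 0.0193 and Kat14 0.0438. These last 2 alternatives were chosen after seeing the data.

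Leaving out 1 library turned the sign of further small values. The log2 fold change then ran from -0.0575 to 0.0609 for Ep300, -0.0559 to 0.2284 for Crebbp, -0.0691 to 0.0725 for Kat2a, -0.0786 to 0.1036 for Kat2b, -0.0044 to 0.1712 for Kat5, -0.1247 to 0.1087 for Kat6a, -0.1532 to 0.1124 for Kat6b and -0.0958 to 0.0338 for Kat7. It ran from -0.0879 to 0.0388 for Hdac1, -0.0148 to 0.1191 for Hdac4, -0.12 to 0.1149 for Hdac5, -0.1025 to 0.0487 for Hdac6, -0.0317 to 0.1297 for Sirt7, -0.0378 to 0.0972 for Sirt3, -0.0706 to 0.0559 for Brd3, -0.066 to 0.0832 for Kat14 and -0.0538 to 0.1019 for Sin3a.

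Of the related genes, 2 fell and 0 rose. The count that fell was 4 with library totals alone, 0 with GC content as an offset, 0 with flox 1 and HKO 4 left out together, and 0 to 4 with 1 library left out. The count that rose was 2 with DESeq2, 1 with no filter on low counts, 1 with GC content as an offset, and 0 to 1 with 1 library left out. Acss2 passed with DESeq2 (-0.6953), library totals alone (-0.7975) and no filter on low counts (-0.698), and ran from -0.8128 (without flox 3, where it passed) to -0.4709 with 1 library left out. The cause was not tested.

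No pairing by replicate number was seen. Deviations from the group means of same-numbered libraries correlated at -0.12 to 0.24, and none correlated best with its own number. Such correlations cannot exclude a pairing in the design, on which the labels say nothing. With the replicate number as a block, 448 genes were called in all, Hdac9 was at -2.17 (edgeR adjusted p = 0.0224), the median of the 32 genes was -0.0068 and Acss2 was at -0.6462. Under the block, Kat2b turned to 0.0023, Kat6a to -0.0046 and Kat6b to -0.0233.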
